A study of Mus musculus with 12 samples.

Results

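The genes described here are 34 genes of sterol and fatty acid synthesis, taken by symbol from a list of the mevalonate and cholesterol pathway, its SREBP regulators and the enzymes of lipogenesis, out of 55471 genes counted. Their RNA was sequenced in primary cultures of mouse hippocampus after knockdown (KD) of the long noncoding RNA *Neuid*. The neurons were wild type (WT) and came from CD1 embryos of mixed-sex litters. They received lipid nanoparticles with either a control gapmer or a gapmer against *Neuid*, an antisense oligonucleotide that directs RNase H to its target, at day in vitro (DIV) 7, and their RNA was taken at DIV 10 (6 libraries in each group). The question is how the expression of these genes differs between cultures with the control level and with a lowered level of *Neuid*. Nothing in the labels states that the libraries come from separate cultures, so p-values measure the spread between these libraries, which may be technical. The paper's plot of *Neuid* knockdown in its RNA-seq samples gives a smaller n than the 6 libraries per group used here.

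Sterols and long-chain fatty acids are both built from acetyl-CoA in the cytosol. The transcription factors SREBP1 and SREBP2 (*Srebf1* and *Srebf2*) drive the enzymes of both branches when sterols in the endoplasmic reticulum run low, with SREBP2 tied more to cholesterol and SREBP1 more to fatty acids, and SREBP1 is itself a target of the oxysterol-sensing liver X receptors (LXR). In the brain cholesterol is made locally, since lipoproteins of the blood do not cross its barrier, and mature neurons take up much of theirs from astrocytes. Desaturases and elongases of the fatty acid branch set how unsaturated and how long membrane lipids are.

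Promoter sequences are shown for 5 members chosen for the way their RNA behaved: *Hmgcs1*, the most abundant member that was not called, *Mvk*, the one member that was lower, *Fads2* and *Elovl5*, which were higher, and *Fasn*, which was not called. Each run is the 250 bases before the annotated start (RefSeq, GRCm38.p6), read in the direction of the gene. Capitals mark the core of a sterol regulatory element (SRE, searched as TCACNCCAC) and the NF-Y box (CCAAT) on either strand.
Hmgcs1 (chr13:119690101-119690350, plus strand): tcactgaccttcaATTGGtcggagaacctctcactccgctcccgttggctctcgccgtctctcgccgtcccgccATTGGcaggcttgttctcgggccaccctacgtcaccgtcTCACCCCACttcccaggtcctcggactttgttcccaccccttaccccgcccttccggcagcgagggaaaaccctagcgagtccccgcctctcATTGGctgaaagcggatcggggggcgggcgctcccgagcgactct
Mvk (chr5:114444019-114444268, plus strand): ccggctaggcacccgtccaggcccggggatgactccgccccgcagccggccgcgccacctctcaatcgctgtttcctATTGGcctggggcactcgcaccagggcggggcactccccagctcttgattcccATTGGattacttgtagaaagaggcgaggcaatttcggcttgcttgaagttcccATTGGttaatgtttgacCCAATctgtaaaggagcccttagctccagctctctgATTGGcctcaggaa
Fads2 (chr19:10101504-10101753, minus strand): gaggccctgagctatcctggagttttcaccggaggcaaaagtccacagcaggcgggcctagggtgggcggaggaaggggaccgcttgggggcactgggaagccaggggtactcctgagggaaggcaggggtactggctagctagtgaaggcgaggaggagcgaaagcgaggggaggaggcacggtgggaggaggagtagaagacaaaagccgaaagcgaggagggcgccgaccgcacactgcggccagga
Elovl5 (chr9:77917115-77917364, plus strand): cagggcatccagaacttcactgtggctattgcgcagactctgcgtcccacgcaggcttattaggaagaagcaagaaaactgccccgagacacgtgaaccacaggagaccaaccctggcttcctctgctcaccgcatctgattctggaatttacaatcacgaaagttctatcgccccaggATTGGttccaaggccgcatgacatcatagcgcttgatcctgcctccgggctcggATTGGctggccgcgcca
Fasn (chr11:120824548-120824797, minus strand): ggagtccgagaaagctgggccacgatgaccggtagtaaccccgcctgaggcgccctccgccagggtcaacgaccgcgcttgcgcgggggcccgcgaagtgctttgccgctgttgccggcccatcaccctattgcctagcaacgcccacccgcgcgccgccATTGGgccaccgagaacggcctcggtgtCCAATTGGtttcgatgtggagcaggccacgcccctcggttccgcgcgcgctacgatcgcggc
The SRE core stands in the *Hmgcs1* window, starting 137 bases before the start, and the *Hmgcs1* run also holds 3 NF-Y boxes. *Mvk* has 5 NF-Y boxes, *Fasn* 3 (of which 2 overlap) and *Elovl5* 2, while the *Fads2* window holds neither. A RefSeq promoter sequence was found for 27 of the 34 members. None was found for *Scd1*, *Scd2*, *Fads1*, *Fdft1*, *Sqle*, *Fdps* and *Stard4*, so these genes were not searched. Only exact matches to the letters were counted, so near matches are left out. Of these 27, 1 held the SRE core (3.70%, beside 1.23% of 27025 genes), 21 the NF-Y box (77.8%, beside 37.5%), 6 the E-box CACGTG (22.2%, beside 6.86%) and 22 the Sp1 box GGGCGG (81.5%, beside 35.4%), each searched on both strands over all start sites of a gene. The NF-Y box was present in 6 of the 7 members that changed and had a promoter sequence, and in 15 of the 20 that were not called, so its presence was common in both classes. The 27025 genes include genes too low to be tested here, while all 34 members were tested, so the shares are not matched for expression. A match of letters is a description and does not show that a factor binds there.

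Reads per library came to between 18002585 and 30914714 in control and between 11152556 and 30573480 in *Neuid* KD, where replicate 1 was the shallowest. *Neuid* itself, counted as Gm10419, was at 26.0 to 31.0 CPM (counts scaled to the size of each library, with TMM) in control and at 6.32 to 9.55 CPM in KD libraries, so the target was lower in every KD library. Reads on 1778 chemosensory receptor genes, taken as a measure of background, were at or above 100 CPM in 7 libraries (4 control and 3 KD) and below it in 5 (2 control and 3 KD). The neuronal label was matched by its markers: 10 pan-neuronal genes summed to 6543 to 7664 CPM in control and 6508 to 7725 CPM in KD, with 1 of 10 called. Glial RNA was present as well. The 15 astrocyte markers summed to 1919 to 2406 CPM in control and to 3859 to 4583 CPM in *Neuid* KD, 13 of the 14 tested were higher without overlap of the groups, with a median log2 fold change of 1.28, and 14 had a read in all 12 libraries; *Gjb6* was near 0 in both groups and was not tested. Markers of oligodendrocyte precursors summed to 277 to 326 CPM in control and 522 to 571 CPM in KD, with 4 of 8 higher (*Olig1*, *Olig2*, *Cspg5* and *Vcan*). The other 4, *Pdgfra*, *Cspg4*, *Gpr17* and *Sox10*, were not called, and *Sox10* was near 1 CPM in both groups. Log2 fold changes of the 8 ran from -0.77 to 1.67. Mature oligodendrocyte, microglial, endothelial and fibroblast markers summed to at most 52.8 CPM in any library, and of these *Mbp* alone was called, as lower. The astrocyte markers and 4 of the 8 precursor markers thus moved with the groups. Their part in the changes of the sterol and fatty acid genes was not tested. In bulk RNA, a change in the number of cells of a type and a change in RNA per cell cannot be told apart.

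All 34 genes passed the filter on low counts. The 3 genes that rose past 0.5 on the log2 scale, *Scd1*, *Fads2* and *Scd2*, encode enzymes that put double bonds into fatty acids; *Fads1*, another such enzyme, rose by 0.20. Differences between the branches were not tested: 5 of the 10 fatty acid genes rose, 6 of the 7 mevalonate steps were not called, and 2 of the 11 steps from squalene to cholesterol rose. With an adjusted p under 0.05 over 19578 tested genes, 9 members (26.5%) were higher in *Neuid* KD, beside 6.31% of all tested genes, and 1 member (2.94%) was lower, beside 2.42%. Most members are abundant: 32 of the 34 lay at a mean of at least 10 CPM, and of the 8915 tested genes at that level 11.5% were higher and 3.38% lower. With an added limit of 0.5 on the log2 fold change, 3 members (8.82%) were higher, beside 2.44% of all genes, and 0 were lower, beside 0.792% (also 0 with DESeq2 and 0 at an unadjusted p under 0.05 in edgeR). The 6 control and 6 KD libraries did not overlap for 9 members (26.5%), beside 5.70% of all genes. The median log2 fold change of the members was 0.03, from -0.22 to 0.81, beside -0.03 over all tested genes. The balance of calls moved with scaling: of all genes called, 72.3% were higher in the main analysis, 59.8% with DESeq2 and 45.5% with upper-quartile normalization, where 7 members were higher and 7 lower.

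**Figure D1:**
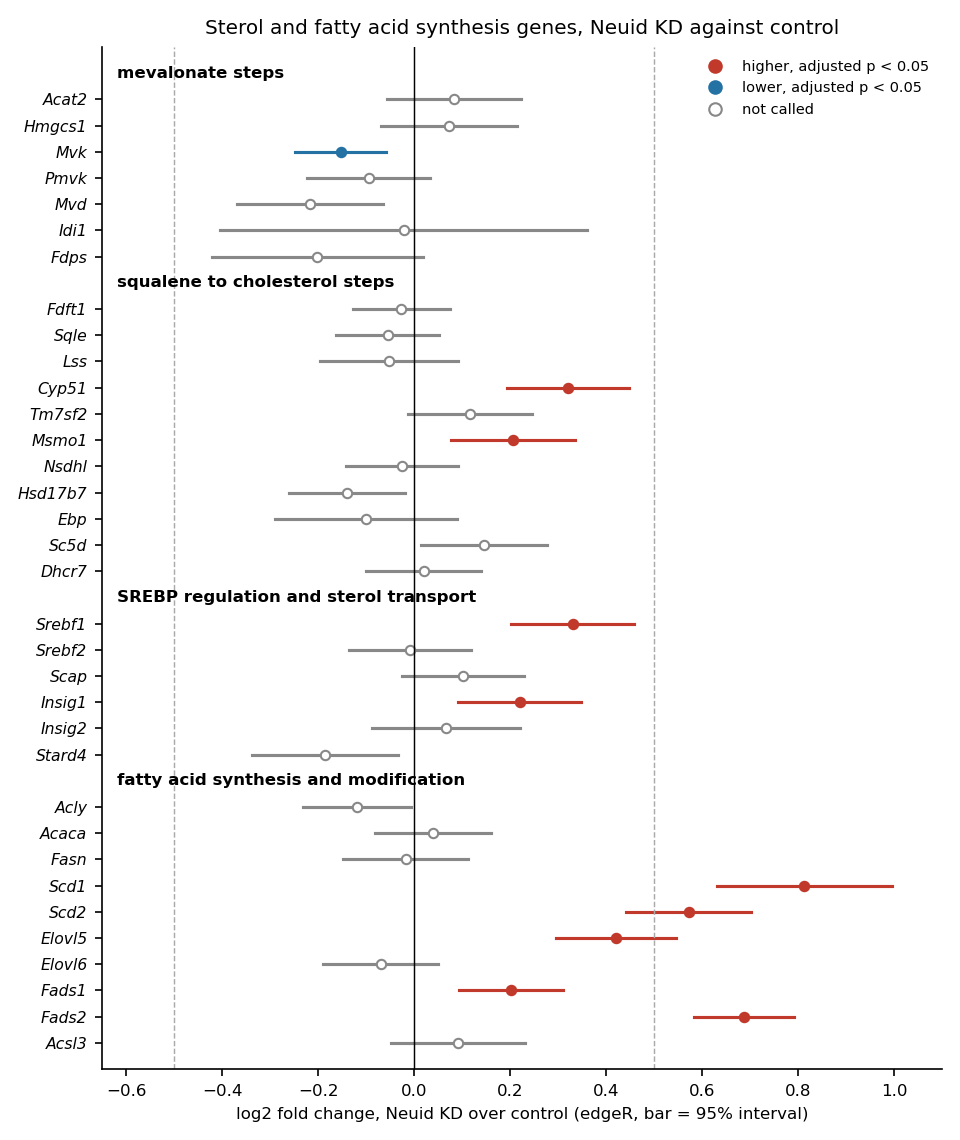
Log2 fold change of each of the 34 genes in *Neuid* KD over control (x axis, edgeR, 6 libraries per group), ordered by pathway step, with bars for the 95% interval, filled points for adjusted p under 0.05 and dashed lines at 0.5 and -0.5. The 3 points beyond 0.5 are *Scd1* (0.81), *Fads2* (0.69) and *Scd2* (0.57), and the filled blue point is *Mvk* (-0.15).

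Within the fatty acid branch, 5 of 10 members rose and 0 fell (also 0 with DESeq2, and 1, *Acly*, at an unadjusted p under 0.05 in edgeR), and their summed level went from 3293 ± 253 to 4287 ± 256 CPM (SD, n = 6). The 5 that rose are desaturases and an elongase, and the enzymes that build palmitate did not pass the test. *Scd1* (chromosome 19, 44394455 to 44407879, GRCm38) encodes a stearoyl-CoA desaturase, which makes monounsaturated fatty acids. It ranged from 194 to 294 CPM in control libraries (median 252) and from 386 to 489 CPM in *Neuid* KD libraries (median 444). Every KD library lay above every control library, and *Scd1* was 1.76 times the control level, a log2 fold change of 0.81 (SE 0.086, edgeR adjusted p = 3.9e-06). *Scd2* (chromosome 19, 44293674 to 44306864), the main brain form of the same enzyme, ranged from 1122 to 1511 CPM in control libraries (median 1351) and from 1831 to 2123 CPM in *Neuid* KD libraries (median 2002). The groups did not overlap, and the log2 fold change was 0.57 (SE 0.0615, edgeR adjusted p = 4.7e-06). Sequence shared with other genes was small, with 4.56% of the 50-base windows of *Scd1* transcripts also present in another gene and 3.97% of those of *Scd2*. The minor forms *Scd3* and *Scd4* were near 1 CPM in both groups and were not called.

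*Fads2* (chromosome 19, 10062765 to 10101746) encodes the delta-6 desaturase that starts the synthesis of long polyunsaturated fatty acids. It ranged from 208 to 242 CPM in control libraries (median 232) and from 346 to 384 CPM in *Neuid* KD libraries (median 368). The lowest KD library was well above the highest control library, the log2 fold change was 0.69 (SE 0.0491, edgeR adjusted p = 2.8e-08), and its spread within groups was small. Its neighbour *Fads1* (chromosome 19, 10182888 to 10196877), the delta-5 desaturase that acts later in that route, ranged from 142 to 165 CPM in control libraries (median 163) and from 167 to 189 CPM in *Neuid* KD libraries (median 183). The groups were separate by a narrow margin, and the log2 fold change of *Fads1* was 0.20 (SE 0.0513, edgeR adjusted p = 0.0175). The elongase *Elovl5* (chromosome 9, 77917364 to 77984519), which lengthens polyunsaturated chains, ranged from 53.5 to 65.3 CPM in control libraries (median 59.4) and from 70.9 to 84 CPM in *Neuid* KD libraries (median 79.7). It was higher in every KD library, with a log2 fold change of 0.42 (SE 0.0591, edgeR adjusted p = 9.6e-05).

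**Figure D2:**
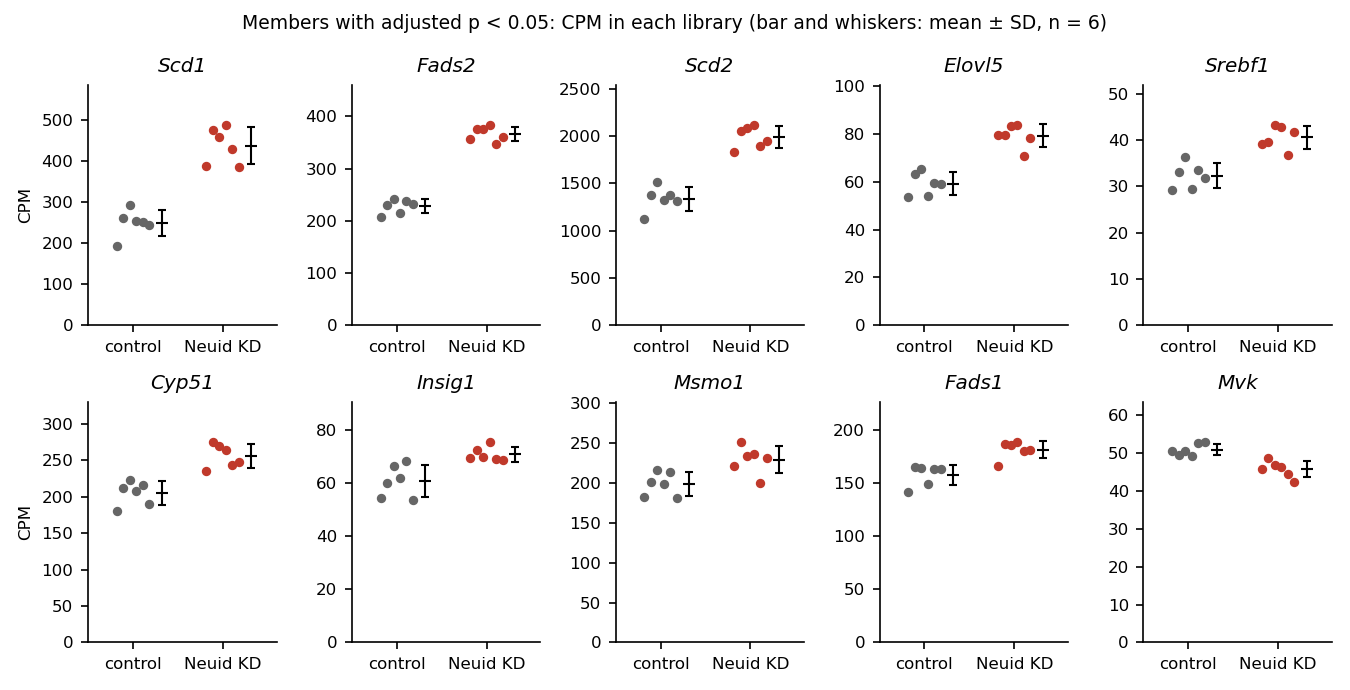
CPM (y axis, from 0) in each of the 6 control (grey) and 6 *Neuid* KD (red) libraries for the 10 members with adjusted p under 0.05, with the mean ± SD beside the points. Only for *Msmo1* do the points of the groups overlap, with a lowest KD library at 200.4 CPM and a highest control library at 216 CPM, and *Mvk* alone is lower in KD.

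The other 5 fatty acid genes did not pass the test, and the intervals given for such genes are not adjusted for the number of genes tested. *Acly*, which makes cytosolic acetyl-CoA from citrate, averaged 330.3 ± 21 CPM in control against 304 ± 17.2 CPM in *Neuid* KD (SD, n = 6), a log2 fold change of -0.12 (95% interval -0.23 to -0.01). *Acaca*, the carboxylase that commits acetyl-CoA to fatty acids, averaged 61.6 ± 2.73 CPM in control against 63.1 ± 5.34 CPM in *Neuid* KD, a log2 fold change of 0.04 (95% interval -0.08 to 0.16). For *Fasn*, which assembles palmitate, the levels ranged from 553 to 644 CPM in control libraries (median 608) and from 493 to 629.9 CPM in *Neuid* KD libraries (median 622), a log2 fold change of -0.02 (95% interval -0.15 to 0.11). The intervals of these 3 enzymes lay between -0.23 and 0.16, while the lower bounds for *Scd1*, *Scd2* and *Fads2* were 0.63, 0.44 and 0.58. *Elovl6*, the elongase that takes palmitate to stearate, averaged 128 ± 7.62 CPM in control against 121 ± 8.63 CPM in *Neuid* KD, a log2 fold change of -0.07 (95% interval -0.19 to 0.05). *Acsl3*, an acyl-CoA synthetase that activates fatty acids, averaged 136 ± 13.8 CPM in control against 145 ± 8.44 CPM in *Neuid* KD, a log2 fold change of 0.09 (95% interval -0.05 to 0.23). *Acaca* shares 30.4% of its 50-base windows with other genes, mainly Gm5182, so its count is uncertain, while *Fasn*, *Acly*, *Elovl5* and *Fads1* share none.

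In the mevalonate steps, which run from acetyl-CoA to farnesyl diphosphate, 1 of 7 members was lower and 0 were higher (also 0 with DESeq2 and 0 at an unadjusted p under 0.05 in edgeR, while 2, *Mvk* and *Mvd*, were lower by each of these), and the summed level was 1463 ± 122 CPM in control against 1510 ± 121 CPM in KD (SD, n = 6). *Mvk*, mevalonate kinase (chromosome 5, 114444269 to 114460591), ranged from 49.3 to 52.9 CPM in control libraries (median 50.6) and from 42.4 to 48.8 CPM in *Neuid* KD libraries (median 46). The groups did not overlap but lay less than 1 CPM apart, and the log2 fold change was -0.15 (SE 0.0446, edgeR adjusted p = 0.041). *Hmgcs1*, the HMG-CoA synthase, was the most abundant gene of this branch and ranged from 1066 to 1394 CPM in control libraries (median 1246) and from 1172 to 1429 CPM in *Neuid* KD libraries (median 1335). Its groups overlapped over most of their range, and the log2 fold change was 0.07 (95% interval -0.07 to 0.22). *Mvd*, the decarboxylase that makes isopentenyl diphosphate, had the most negative value among members, -0.22 (SE 0.0717, edgeR adjusted p = 0.077), with 60.4 ± 6.58 CPM in control against 52 ± 4.09 CPM in *Neuid* KD. It did not pass the edgeR test and was called in 8 of the 22 other settings, DESeq2 among them (adjusted p = 0.011). *Acat2*, the cytosolic thiolase, and *Pmvk*, phosphomevalonate kinase, had log2 fold changes of 0.08 (95% interval -0.06 to 0.22) and -0.09 (95% interval -0.22 to 0.03). *Fdps*, farnesyl diphosphate synthase, averaged 12.7 ± 0.9 CPM in control against 11.1 ± 2.18 CPM in *Neuid* KD, a log2 fold change of -0.20 (95% interval -0.42 to 0.02). *Idi1*, the isopentenyl diphosphate isomerase, was listed at about 3 CPM (3.02 ± 0.708 CPM in control against 2.97 ± 0.434 CPM in *Neuid* KD), and its interval of -0.40 to 0.36 was the widest of the members. For *Acat2*, *Fdps* and *Idi1*, 39.1%, 26.2% and 25.3% of the 50-base windows occur in other genes as well, mainly *Acat3*, Gm43738 and Gm13502, so their counts are uncertain.

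Between squalene and cholesterol, 2 of 11 members rose and 0 fell (*Hsd17b7* fell with DESeq2, and was the 1 gene below 0 at an unadjusted p under 0.05 in edgeR), and the summed level was 1283 ± 76.4 CPM in control against 1355 ± 69.1 CPM in KD (SD, n = 6). *Cyp51* (chromosome 5, 4081145 to 4104746), the lanosterol demethylase, ranged from 180.2 to 223 CPM in control libraries (median 210.2) and from 234 to 275 CPM in *Neuid* KD libraries (median 256). The groups did not overlap, and the log2 fold change was 0.32 (SE 0.0601, edgeR adjusted p = 0.00172). *Msmo1* (chromosome 8, 64718139 to 64733792), the methylsterol monooxygenase of a later step, ranged from 181 to 216 CPM in control libraries (median 199.8) and from 200.4 to 251 CPM in *Neuid* KD libraries (median 232). Its groups overlapped, and its log2 fold change of 0.21 (SE 0.0612, edgeR adjusted p = 0.046) passed the threshold narrowly. *Cyp51* overlaps *Akap9* on the opposite strand, and 2.77% of its windows are shared.

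The first enzymes after farnesyl diphosphate were close to the control level. *Fdft1*, squalene synthase, averaged 192 ± 10.2 CPM in control against 189 ± 7.98 CPM in *Neuid* KD, *Sqle*, squalene epoxidase, 271 ± 15.2 CPM in control against 261 ± 13.6 CPM in *Neuid* KD, and *Lss*, lanosterol synthase, 81.9 ± 5.75 CPM in control against 78.8 ± 8.23 CPM in *Neuid* KD. Their log2 fold changes were -0.03 (95% interval -0.13 to 0.08), -0.05 (95% interval -0.16 to 0.05) and -0.05 (95% interval -0.20 to 0.09), so all 3 intervals lay between -0.20 and 0.09. *Fdft1* overlaps *Ctsb* on the opposite strand. Of the windows of *Fdft1*, 26.5% occur in other genes as well, and 17.2% occur in *Ctsb*. Among the late steps, *Sc5d*, lathosterol oxidase, had the highest value that was not called, 0.15 (SE 0.062, edgeR adjusted p = 0.195), with 84.6 ± 6.1 CPM in control against 93.5 ± 7.65 CPM in *Neuid* KD. *Tm7sf2*, a sterol reductase, and *Dhcr7*, the last reductase of one arm of the route, had log2 fold changes of 0.12 (95% interval -0.01 to 0.25) and 0.02 (95% interval -0.10 to 0.14). *Tm7sf2* overlaps *Vps51* on the same strand and shares 9.87% of its windows with it, so its count is uncertain. *Nsdhl* and *Hsd17b7*, which act with *Msmo1* in removing methyl groups at carbon 4, had -0.03 (95% interval -0.14 to 0.09) and -0.14 (95% interval -0.26 to -0.02), so of this set the oxygenase alone was called. *Ebp*, the sterol isomerase, averaged 9.92 ± 1.27 CPM in control against 9.24 ± 0.816 CPM in *Neuid* KD, a log2 fold change of -0.10 (95% interval -0.29 to 0.09).

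Of the regulators and sterol carriers, 2 of 6 rose and 0 fell (*Stard4* fell with DESeq2, and was the 1 gene below 0 at an unadjusted p under 0.05 in edgeR). *Srebf1* (chromosome 11, 60199089 to 60222581), which encodes SREBP1, ranged from 29.3 to 36.4 CPM in control libraries (median 32.5) and from 36.9 to 43.4 CPM in *Neuid* KD libraries (median 40.7). The groups did not overlap, and the log2 fold change was 0.33 (SE 0.0603, edgeR adjusted p = 0.00135). *Srebf2*, which encodes SREBP2, ranged from 278 to 332 CPM in control libraries (median 307) and from 265 to 329 CPM in *Neuid* KD libraries (median 312). Its groups overlapped throughout, and its log2 fold change was -0.01 (95% interval -0.13 to 0.12). *Insig1* (chromosome 5, 28071363 to 28078662), which holds the SREBP escort in the endoplasmic reticulum and is itself an SREBP target, ranged from 53.6 to 68.1 CPM in control libraries (median 61) and from 68.5 to 75.4 CPM in *Neuid* KD libraries (median 69.5). The groups did not overlap but also lay less than 1 CPM apart, and the log2 fold change was 0.22 (SE 0.0609, edgeR adjusted p = 0.0307). *Insig2*, its relative, averaged 13 ± 1.07 CPM in control against 13.6 ± 1.23 CPM in *Neuid* KD, a log2 fold change of 0.07 (95% interval -0.09 to 0.22). *Scap*, the escort that carries SREBP to the Golgi, averaged 64.3 ± 4.73 CPM in control against 68.9 ± 4.97 CPM in *Neuid* KD, a log2 fold change of 0.10 (95% interval -0.02 to 0.23). *Scap* overlaps 5830462I19Rik on the opposite strand and shares 9.96% of its windows with it. *Stard4*, a cytosolic cholesterol carrier, averaged 80.7 ± 7.59 CPM in control against 70.9 ± 6.91 CPM in *Neuid* KD, a log2 fold change of -0.19 (SE 0.0718, edgeR adjusted p = 0.144). Counts are per gene, so the transcripts of *Srebf1* for SREBP1a and SREBP1c were not separated.

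**Figure D3:**
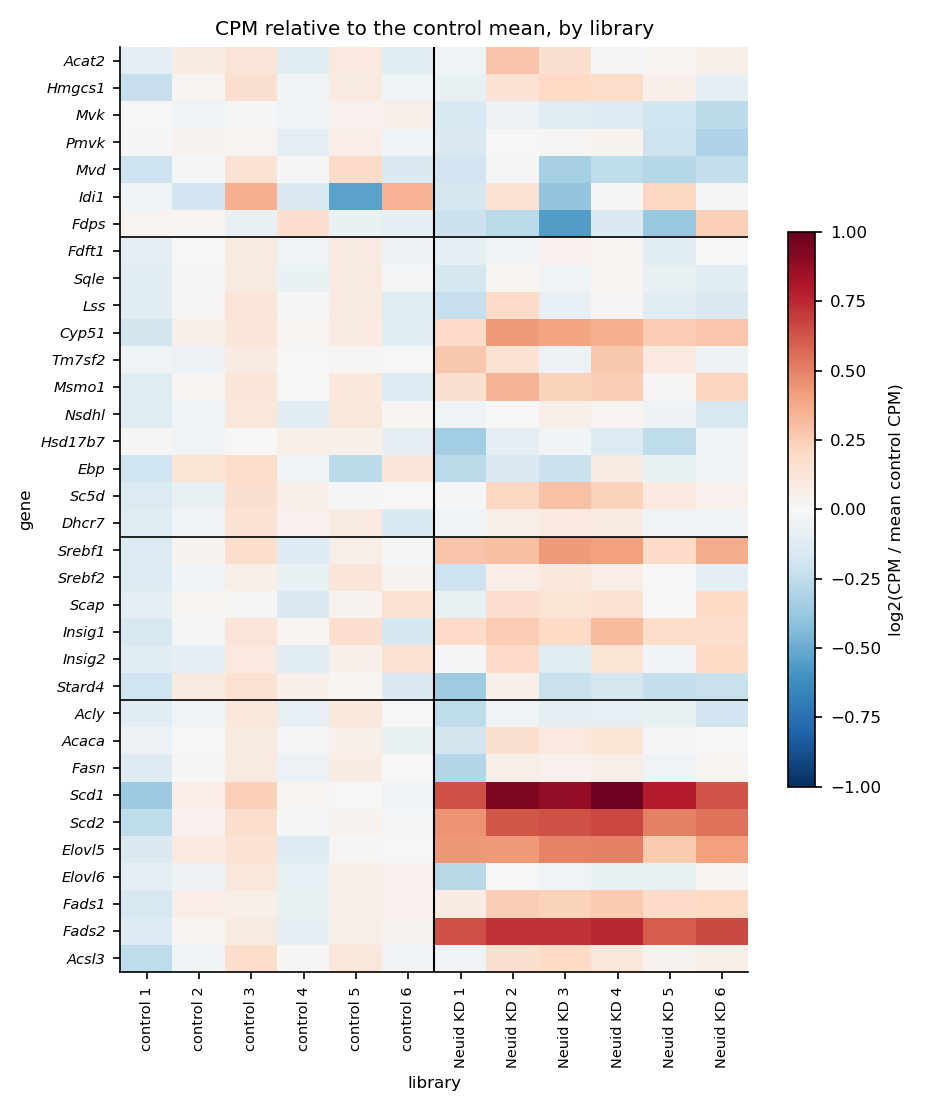
Log2 of CPM over the control mean (colour, from -1 to 1) for the 34 genes (rows, by pathway step, separated by lines) in the 12 libraries (columns). The rows of *Scd1*, *Scd2*, *Fads2* and *Elovl5* are red in all 6 KD libraries, and most other rows stay pale, with *Idi1*, at about 3 CPM, uneven in both groups.

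Summed over all 34 genes, the level was 6596 ± 477 CPM in control against 7721 ± 468 CPM in *Neuid* KD (SD, n = 6). The sum is weighted by the most abundant genes, *Scd2* and *Hmgcs1*. Of the rise of 1125 CPM in the mean, 980 CPM (87.1%) lay in *Scd1*, *Scd2* and *Fads2*, set apart here because they rose past 0.5. The other 31 members summed to 4780 ± 314 CPM in control against 4926 ± 303 CPM in *Neuid* KD. The libraries of one group differed little for most members: the coefficient of variation had a median of 7.30% in control, from 2.95% to 23.4%, and of 7.65% in KD, from 3.78% to 19.7%. Of the 34 genes, 18 were lowest among KD libraries in replicate 1, the shallowest library, with the highest background of the KD group (604 CPM). The same share over all tested genes is not given, so this count is not read as a trait of these members.

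Per kb of annotated exon, the order of control levels put *Hmgcs1* at 272 ± 24.5 and *Scd2* at 245 ± 23.2 CPM per kb (SD, n = 6), and the ranges of these neighbours over the libraries overlapped; 11.6% of the windows of *Hmgcs1* occur in other genes as well. They were followed at a distance by *Fads2* (69.0 CPM per kb), *Acly* (62.6 CPM per kb), *Fasn* (55.3 CPM per kb) and *Scd1* (51.0 CPM per kb). In *Neuid* KD the level per kb of *Scd2* was 364 ± 21.2 and that of *Hmgcs1* 286 ± 25 CPM per kb. *Scd1* stood at 89.6 CPM per kb in KD, while *Fasn*, its neighbour in control, stood at 54.6 CPM per kb. Of the regulators, *Srebf2* stood at 42.6 and *Srebf1* at 5.73 CPM per kb in control, and *Idi1* was lowest at 0.862 CPM per kb.

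**Figure D4:**
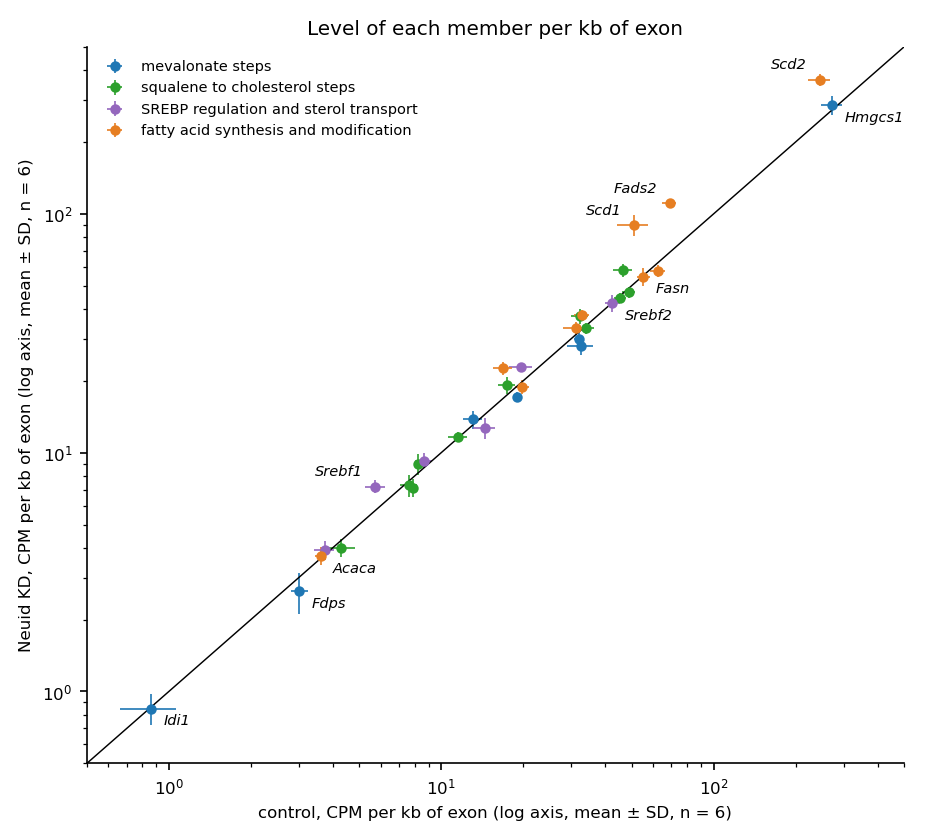
Mean level per kb of annotated exon in control (x axis) and *Neuid* KD (y axis), both log axes in CPM per kb, with SD bars (n = 6 each), one point per gene coloured by pathway step; the diagonal marks equal levels. *Scd2*, *Scd1* and *Fads2* lie above the diagonal, and *Hmgcs1*, at 272 CPM per kb in control, lies near it.

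Relatives within a family were compared by the ratio of their CPM within each library. These pairs were picked after the values had been seen, and the ratios are given without a test. The log2 ratio of *Fads2* to *Fads1* was 0.53 ± 0.0268 in control and 1.01 ± 0.049 in *Neuid* KD, a difference of 0.49 (SD, n = 6 each), and that of *Elovl5* to *Elovl6* was -1.11 ± 0.0786 in control and -0.61 ± 0.137 in *Neuid* KD, a difference of 0.50. For *Srebf1* to *Srebf2* it was -3.24 ± 0.0737 in control and -2.90 ± 0.12 in *Neuid* KD, a difference of 0.34, and for *Scd1* to *Scd2* it was -2.43 ± 0.061 in control and -2.19 ± 0.0853 in *Neuid* KD, a difference of 0.24. In these 4 pairs the libraries of the groups did not overlap. For *Insig1* to *Insig2* the log2 ratio was 2.23 ± 0.174 in control and 2.39 ± 0.122 in *Neuid* KD, a difference of 0.16, and the groups overlapped.

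**Figure D5:**
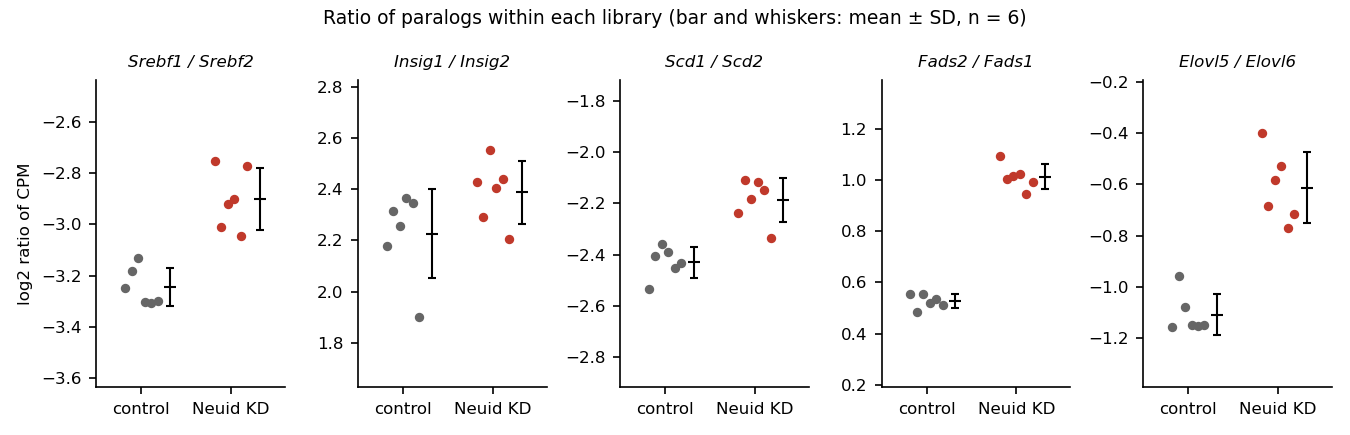
Log2 ratio of CPM between relatives within each library (y axis, each panel spanning the same range), in 6 control (grey) and 6 *Neuid* KD (red) libraries, with the mean ± SD beside the points. The ratio of *Fads2* to *Fads1* is 0.53 in control and 1.01 in KD, while the points for *Insig1* to *Insig2* overlap.

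A list of further genes of these pathways held 49 genes, of which 47 were tested, 15 were higher (beside 6.31% of all tested genes, and 11.5% of those at a mean of at least 10 CPM), 1 was lower (beside 2.42%) and 31 were not called. The largest group was in fatty acid synthesis, with 8 of 19 higher. *Acss2*, which makes acetyl-CoA from acetate, ranged from 16.9 to 20.7 CPM in control libraries (median 19) and from 30.2 to 37 CPM in *Neuid* KD libraries (median 34.1), a log2 fold change of 0.84 (SE 0.0644, edgeR adjusted p = 6.5e-08). *Mid1ip1*, a cofactor that promotes assembly of acetyl-CoA carboxylase, went from 33 to 56 CPM on average, 0.76 (SE 0.0619, edgeR adjusted p = 1.5e-07) on the log2 scale, and its relative *Thrsp* from 64.3 to 81.4 CPM, 0.34 (SE 0.0602, edgeR adjusted p = 0.00104). The dehydratases of chain elongation *Hacd2* and *Hacd3* rose by 0.52 and 0.27, the elongase *Elovl2* by 0.33, malic enzyme *Me1* by 0.34 and the acyltransferase *Gpam* by 0.28 on the log2 scale. Among these, *Acss2*, *Mid1ip1*, *Hacd2*, *Thrsp* and *Hacd3* had no overlap between groups, beside 5.70% of all tested genes.

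*Abca1* and *Cyp7b1*, of sterol export and turnover, had the largest rises of the further genes. Of the 8 tested genes of LXR, sterol export, oxysterols and esterification, 3 were higher, 1 was lower and 4 were not called. *Abca1*, the LXR-responsive exporter of cholesterol to lipoproteins, ranged from 47.6 to 65.3 CPM in control libraries (median 59.2) and from 113 to 157 CPM in *Neuid* KD libraries (median 149), a log2 fold change of 1.33 (SE 0.0869, edgeR adjusted p = 8.8e-09). *Cyp7b1*, which hydroxylates oxysterols, ranged from 4.31 to 6.74 CPM in control libraries (median 5.7) and from 12.9 to 15.2 CPM in *Neuid* KD libraries (median 13.3), a log2 fold change of 1.30 (SE 0.0964, edgeR adjusted p = 4.5e-08). *Abcg1*, another sterol exporter and LXR target, went the other way, with a mean that went from 22.9 to 18.7 CPM and a log2 change of -0.28 (SE 0.0727, edgeR adjusted p = 0.0197). *Npc1* and *Npc2*, which move cholesterol out of lysosomes, rose by 0.36 and 0.27, and *Soat1*, which esterifies cholesterol, by 0.24 on the log2 scale. *Pdss2*, of ubiquinone synthesis, was higher by 0.27 on the log2 scale. The oxysterol enzymes *Ch25h* and *Cyp27a1* were at most 1.15 CPM in any library and were not tested.

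The calls differed in how far they held under 22 other settings, which include each library left out in turn. *Scd1* and *Fads2* were called in all 22, with a largest adjusted p of 0.038 and 0.0405 in edgeR with an offset for GC content and length. *Scd2*, *Elovl5* and *Srebf1* were called in 21 of 22 and lost the call with that offset (edgeR adjusted p = 0.123, 0.455 and 0.456), where their log2 fold changes of 0.61, 0.47 and 0.36 were no smaller than in the main analysis. *Cyp51* was called in 19 of 22. The calls of *Fads1*, *Mvk*, *Insig1* and *Msmo1* were close to the threshold: when 1 of the 12 libraries was left out, they were called in 5, 3, 2 and 1 of 12 cases. *Fads1* lost its call without control replicate 2 or 6 or without any of *Neuid* KD replicates 2 to 6, and *Mvk* kept it only without KD replicate 1, 5 or 6. *Insig1* kept its call only without control replicate 3 or 5, and *Msmo1* only without KD replicate 5. With 1 library left out, their largest edgeR adjusted p was 0.15, 0.15, 0.198 and 0.301, and the direction was the same in every case.

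Within the 7 libraries at or above 100 CPM of background and within the 5 below it, *Scd1* had a log2 fold change of 0.76 and 0.77, *Fads2* of 0.69 and 0.63, *Scd2* of 0.57 and 0.50, and *Elovl5* of 0.42 and 0.36, each called in both. *Srebf1* was at 0.35 and 0.23 and was also called in both. *Cyp51* was at 0.30 and 0.26, *Fads1* at 0.19 and 0.16 and *Msmo1* at 0.20 and 0.13, each called in the second class alone. *Insig1* was at 0.27 and 0.08, and *Mvk* at -0.19 and -0.15, with no call in either class; the difference between the classes was not tested.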

How the data were processed

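The 12 libraries were made from total RNA with a stranded SMARTer kit for small inputs. Per the paper's methods and the submitters' processing notes, the authors demultiplexed reads with bcl2fastq, aligned them to mm10 (GRCm38) with STAR and counted them per gene with featureCounts. The deposited values are raw counts, not normalized; the annotation release and the strand setting of the counting are not given in the sources used here. Gene symbols and positions came from GENCODE (GRCm38) for 55144 of 55471 genes, and levels per kb use its annotated exon length.

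Counts were filtered (filterByExpr), TMM-normalized and fitted with edgeR 4.0.16 in R 4.3.3 (quasi-likelihood test), with the group as the single term and Benjamini-Hochberg adjustment over 19578 genes; the script was checked on simulated counts. Called means an adjusted p under 0.05. CPM are scaled to TMM-adjusted library sizes, and intervals cover 95%. Depth was 11152556 to 30914714 reads, which bounds precision most for *Idi1*. Alternatives were DESeq2 1.42.0, upper-quartile normalization, no filter on low counts, 1 RUVs factor, a background covariate, a replicate block, 2 offsets for GC content and length (one chosen after seeing the data), the libraries of high and low background apart, and each library left out in turn. All members are named, as are further pathway genes with an adjusted p under 0.05, apart from a few items that are not reported here; *Scd3*, *Scd4*, *Ch25h* and *Cyp27a1* were named after their values had been seen, as were the paralog pairs. The members and gene lists were chosen with earlier results of these data known. Shared sequence was the share of 50-base windows of a gene's transcripts that also occur, on either strand, in transcripts of another gene. It thus includes overlap with genes on the opposite strand, which a stranded count would separate.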

Additional observations from a re-analysis of the deposited data

Results flagged for a closer look

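In 2 of 68 groups of 6 libraries, 1 library stood far from the other 5 by Dixon's test, which chance does in about 1 in 20 groups (5%). Both were *Neuid* KD replicate 1, the shallowest library. *Fasn* was at 492.6 CPM there and between 590.3 and 629.9 CPM in the other KD libraries. *Elovl6* was at 105.2 CPM there and between 121 and 129 CPM in the others. Without this library, the log2 fold changes were -0.01 for *Fasn* and -0.07 for *Elovl6*, and neither was called with edgeR.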

How the results depend on the processing

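The 3 members higher past a log2 fold change of 0.5 (*Scd1*, *Fads2* and *Scd2*) were 3 under all 22 alternatives but the GC and length offset, which gave 2 (*Scd2*, at 0.61, had an edgeR adjusted p of 0.123 there), and the count lower past 0.5 was 0 in all. The count of members higher was 9 in the main analysis, 5 without the filter, 2 with the GC and length offset, 5 within the high-background libraries and 6 to 8 with 1 library left out. The count of members lower moved more: it was 1 in the main analysis, 4 each with DESeq2, 1 RUVs factor and the background covariate, 7 with upper-quartile normalization, 7 with the GC and length offset from genes of at least 10 CPM (chosen after seeing the data), 5 within the low-background libraries, 0 without the filter, with the GC and length offset and within the high-background libraries, and 0 to 2 with 1 library left out. Genes that gained a lower call in some setting were *Mvd* (also without control replicate 1 or KD replicate 1), *Stard4*, *Acly*, *Hsd17b7*, *Sqle*, *Elovl6* and, without KD replicate 6, *Fdps*.

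The median of the members changed sign with upper-quartile normalization (-0.03077), the offset from genes of at least 10 CPM (-0.03051) and the low-background libraries (-0.03397), and was 0.002202 to 0.06614 with 1 library left out. Reversals of single genes concerned values near 0 that were not called. With upper-quartile normalization and the 10 CPM offset, *Dhcr7* was at -0.04081 and -0.03506 and *Acaca* at -0.02072 and -0.02596. With the GC and length offset, *Idi1* was at 0.0249, *Fdft1* at 0.02778, *Nsdhl* at 0.03287 and *Srebf2* at 0.006736. In the high-background libraries *Idi1* was at 0.02465 and *Acaca* at -0.01036, and in the low-background ones *Dhcr7* was at -0.06693, *Insig2* at -0.02827 and *Acsl3* at -0.0198. With 1 library left out, *Dhcr7* ranged from -0.02135 to 0.05387, *Idi1* from -0.1082 to 0.07043, *Nsdhl* from -0.06053 to 0.003346, *Srebf2* from -0.0408 to 0.01982 and *Fasn* from -0.05924 to 0.003934. The cause of these shifts was not tested.

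Over all genes, 1235 were higher and 473 lower in the main analysis, 1487 and 1000 with DESeq2, 1049 and 1259 with upper-quartile normalization, 711 and 229 without the filter, 1757 and 988 with 1 RUVs factor, 1775 and 987 with the background covariate, 398 and 98 with the GC and length offset, 1114 and 1384 with the 10 CPM offset (44.6% higher), 651 and 205 in the high-background and 1110 and 799 in the low-background libraries (58.1% higher), and 822 to 1208 and 355 to 780 with 1 library left out. Whether equal replicate numbers mark paired libraries could not be settled. Deviations of libraries with equal numbers correlated at 0.77, -0.45, 0.75, -0.64, -0.55 and 0.00. Of the 6 controls, 4 did not correlate best with their own number. Background in control and KD was 653 and 604 CPM in pair 1 and 26.0 and 26.9 CPM in pair 3. It was 410 and 70.7 CPM in pair 2, 579 and 49.5 CPM in pair 4 and 28.7 and 283 CPM in pair 5. In pair 6 it was 181 and 326 CPM. Background was not removed from the deviations, so the check cannot exclude pairing. With a replicate block, 9 members were higher, 1 lower and 3 past 0.5, the median was 0.02859, *Mvk* was no longer called and *Stard4* was, and 1299 genes were higher and 542 lower. Depth limits *Idi1* and *Ebp*, at about 3 and 9 CPM.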
